A study of Mus musculus with 5 samples.

Results

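Transcript levels of 8 genes of lysosomal sugar and sphingolipid breakdown were followed in B cells sorted from the light zone of splenic germinal centres in mice. The genes were Gaa, Psap, Hexa, Gla, Glb1, Gusb, Asah1 and Arsa, taken by name from a table of 23234 genes and chosen by earlier comparisons of their FPKM between these same libraries. All 8 had a value above 0 in every library and were among the 10242 genes that reached the level set for testing. Cells of both groups came from donor B cells of the C57BL/6 background with the alleles ERT2cre(KI/+), a Cre recombinase that tamoxifen activates, and B1-8hi(KI/+), an immunoglobulin heavy chain that binds the hapten NP. The donor cells carried CD45.1/2 as a label and were either floxed at Csk on both alleles, labelled Csk(f/f), or Csk(+/+). They were moved as naive cells into C57BL/6J hosts, which received NP-CGG in alum on day 0 and tamoxifen on days 8 and 9. Donor light zone cells that bound NP were sorted on day 11, so both groups had Cre and tamoxifen. Csk is the kinase that restrains Src family kinases below the B cell receptor. There were 2 libraries labelled Csk(f/f) and 3 labelled Csk(+/+), called biological replicates by the submitters, and each was made from sorted cells in bulk. In bulk RNA, fewer cells of a type and less RNA per cell cannot be told apart. The age of the animals, and whether animals were pooled, are not given in the sources used here.

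Lysosomal hydrolases are made in the endoplasmic reticulum, tagged with mannose 6-phosphate and carried to acid compartments, where they take glycogen, glycoprotein glycans, glycosaminoglycans and membrane lipids apart from their ends. Glycosphingolipids are poorly soluble, so several of the enzymes act only with saposins, small proteins cut from the Psap precursor, or with the GM2 activator protein. Loss of single members causes storage diseases such as Pompe (Gaa), Tay-Sachs (Hexa), Fabry (Gla) and Farber disease (Asah1). In B cells the same compartments break down antigen taken up through the B cell receptor before it is presented to T cells. Many lysosomal genes carry the sequence CACGTG near their start, the core that transcription factors of the MiT/TFE family (Tfeb, Tfe3) recognise.

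Sequences upstream of the start of 6 of the genes are shown because the CACGTG core has been used to group lysosomal genes. They come from RefSeq on GRCm38.p6, whereas the expression table was made on mm9, and are written 5′ to 3′ on the strand of the gene. The stretches run up to the base before the start in Glb1, Arsa, Hexa and Psap, and cover bases 170 to 111 before it in Gaa and 250 to 151 before it in Gla. Capitals mark CACGTG in Gaa, Gla, Glb1 and Arsa, GGGCGG in Hexa and TGAGTCA in Psap.
Gaa, chr11:119267793-119267852, + strand: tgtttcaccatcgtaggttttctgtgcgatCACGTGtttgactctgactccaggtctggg
Gla, chrX:134601156-134601255, - strand: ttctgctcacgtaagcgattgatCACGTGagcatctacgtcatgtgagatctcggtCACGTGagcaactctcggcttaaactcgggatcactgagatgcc
Glb1, chr9:114400988-114401077, + strand: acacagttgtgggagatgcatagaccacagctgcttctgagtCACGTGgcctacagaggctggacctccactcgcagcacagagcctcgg
Arsa, chr15:89477425-89477484, - strand: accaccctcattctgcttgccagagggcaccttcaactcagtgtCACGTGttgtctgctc
Hexa, chr9:59539440-59539539, + strand: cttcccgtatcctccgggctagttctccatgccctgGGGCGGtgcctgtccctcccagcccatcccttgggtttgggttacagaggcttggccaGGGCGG
Psap, chr10:60277528-60277627, + strand: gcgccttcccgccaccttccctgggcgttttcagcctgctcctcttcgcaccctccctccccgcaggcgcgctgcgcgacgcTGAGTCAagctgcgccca
A window taking in the 250 bases before the start was found for 7 of the 8 genes, all but Asah1. Its listed coordinates run on past the start, but every match in these genes lay before it. CACGTG, which reads the same on both strands, was in the windows of 4 of the 7 (57.1%), with 2 copies in Gla. Among all tested genes with a window it was in 826 of 8023 (10.3%), and among other lysosomal hydrolase and lipid genes in 3 of 29 (10.3%). TGAGTCA or its reverse complement TGACTCA was in the windows of Psap and Glb1 (2 of 7, 28.6%) and of 272 of 8023 tested genes (3.39%). In Glb1 it overlaps the CACGTG core. GGGCGG or CCGCCC was in 2 of the 7 windows (Hexa and Gla, 28.6%) and in 65.1% of the tested genes' windows. The motifs were chosen after the windows had been seen, and a match is only a run of letters in this window.

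The labels of the libraries were set against known transcripts first. Csk had 453 and 476 FPKM in the Csk(f/f) libraries, against 378, 436 and 415 FPKM in the Csk(+/+) libraries. FPKM, the unit of the deposited table, is a fragment count scaled to transcript length and to the mapped fragments of the library, and allows levels of genes of different length to be compared. The value is for the whole gene and not for a floxed exon alone, so it does not check the deletion, and groups are named by their labels. The 12 germinal centre B cell markers summed to 4122 to 4405 FPKM in the Csk(f/f) libraries and 3269 to 4457 FPKM in the Csk(+/+) libraries, and none of the 12 was under 1 FPKM in every library. Depth, estimated roughly from the smallest steps in the values, was about 23.2 and 9.3 M fragments (M, mega-, in SI units) in the Csk(f/f) libraries and 15.6, 19.0 and 11.8 M in the Csk(+/+) libraries. Csk(+/+) replicate 3 had the fewest genes above 0 (13291). Among all tested genes, 8 passed the test with it and 411 without it, so results are also given without it.

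In the Csk(f/f) libraries the log2 difference was above 0 for 7 of the 8 genes (48.7% of all tested genes) and below 0 for Asah1. After a correction for transcript GC content that of Asah1 was near 0, at 0.01 ± 0.165 (SE). For 6 of the 8 (Gaa, Psap, Hexa, Glb1, Gusb and Arsa) every Csk(f/f) library was above every Csk(+/+) library, where 20.7% of all tested genes had that order. The median log2 difference of the 8 genes, Csk(f/f) minus Csk(+/+) on the scale log2(FPKM + 1), was 0.48, against -0.01 over all tested genes. None of the 8 passed the test across all genes (limma, adjusted p under 0.05), whereas 0.0781% of all tested genes did. At an unadjusted p under 0.05 by limma 5 of the 8 were higher and 0 lower, where 8.07% and 13.6% of all tested genes were. Since the choice of the 8 used these libraries, the counts describe them and support nothing. Single differences are given with their standard error (SE) and 95% interval as descriptions.

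**Figure D1:**
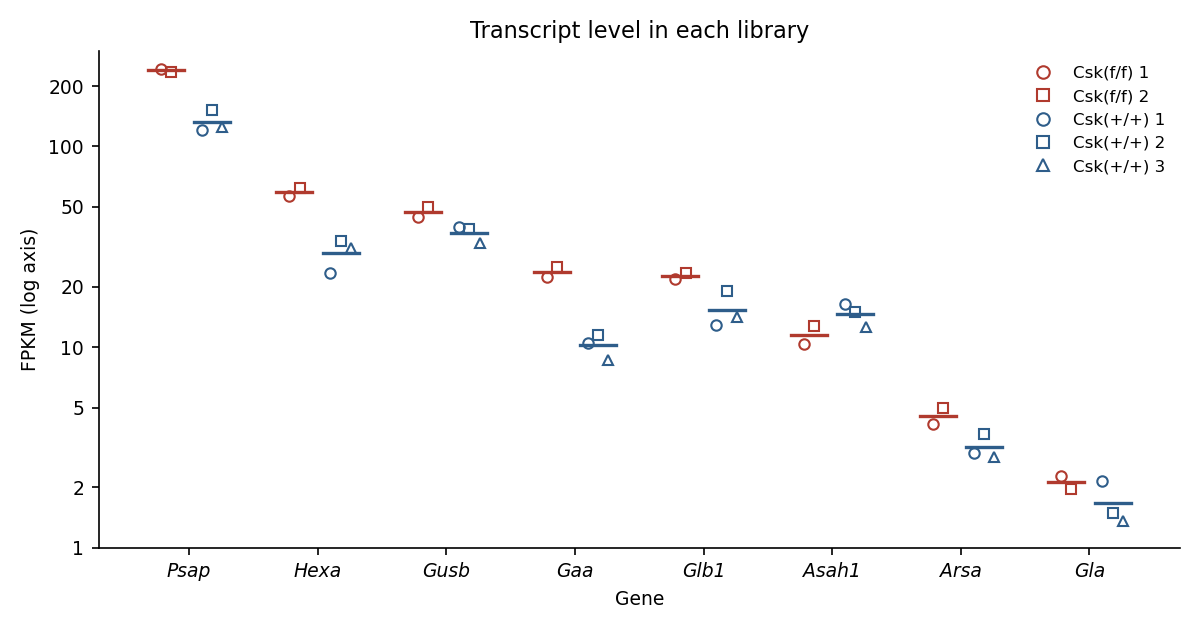
FPKM of the 8 genes (log axis) in each library, with the 2 Csk(f/f) libraries in red at the left and the 3 Csk(+/+) libraries in blue at the right of each gene, and horizontal lines at the group means. The groups do not overlap for Psap, Hexa, Gusb, Gaa, Glb1 and Arsa, and they overlap for Asah1 and Gla.

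Gaa encodes acid alpha-glucosidase, which frees glucose from glycogen in lysosomes. Its FPKM was 22.3 and 25.1 in the Csk(f/f) libraries, against 10.5, 11.5 and 8.62 in the Csk(+/+) libraries. Both Csk(f/f) libraries were far above the highest Csk(+/+) library, and no other of the 8 genes had a larger ratio of means (2.32). The log2 difference was 1.14 ± 0.18 (SE; 95% interval 0.73 to 1.56). These levels rest on about 369 to 1880 fragments a library. Its rank stood at percentile 65.9 and 68.0 of the tested genes in the Csk(f/f) libraries, against 43.7 to 47.1 in the Csk(+/+) libraries.

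Glycogen in the cytosol is handled by other enzymes, of which 7 of the 13 listed were tested. None passed the test across all genes. The median log2 difference of the 7 was 0.04. By limma's unadjusted p (threshold 0.05) Pygb was higher and Ugp2 lower, where 8.07% and 13.6% of all tested genes were. These 2 calls ended with the GC correction, where the log2 differences were 0.14 for Pygb and -0.02 for Ugp2. Pygb, a glycogen phosphorylase, had 56.5 and 60.5 FPKM in the Csk(f/f) libraries and 42.4, 53.4 and 42.3 in the Csk(+/+) libraries. Ugp2, which makes UDP-glucose, had 7.94 and 6.25 FPKM in the Csk(f/f) libraries, against 11.0, 8.87 and 11.7 in the Csk(+/+) libraries. The phosphoglucomutase Pgm2 had a log2 difference of 0.33 ± 0.15 (SE), and of 0.51 after the GC correction.

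Psap, the saposin precursor, was the most abundant of the 8. It had 244 and 235 FPKM in the Csk(f/f) libraries, against 120, 151 and 125 FPKM in the Csk(+/+) libraries. The groups were well apart, with a spread within Csk(f/f) (SD 6.03) smaller than that within Csk(+/+) (SD 16.8). The log2 difference was 0.86 ± 0.14 (SE; 95% interval 0.53 to 1.19). Psap stood at percentile 96.3 and 96.4 of the tested genes in the Csk(f/f) libraries and at 92.5 to 94.2 in the Csk(+/+) libraries. It made up 60.1% and 56.6% of the summed FPKM of the 8 genes in Csk(f/f) and 52.6%, 55.1% and 54.5% in Csk(+/+). Without Psap the sum of the other 7 was 171 ± 13.5 FPKM in Csk(f/f) (SD, n = 2) and 112 ± 10.2 FPKM in Csk(+/+) (SD, n = 3).

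Among the hydrolases that saposins assist, Galc, the galactosylceramidase that works with saposin A, stayed under 1 FPKM in every library and was not tested.

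Hexa encodes the alpha subunit of beta-hexosaminidase A, which removes N-acetylgalactosamine from ganglioside GM2. It had 56.4 and 62.2 FPKM in the Csk(f/f) libraries, against 23.5, 33.9 and 31.1 FPKM in the Csk(+/+) libraries. The lowest Csk(f/f) library was well above the highest Csk(+/+) library. On the log2 scale it was higher by 1.00 ± 0.18 (SE; 95% interval 0.58 to 1.41). An opposite-strand gene, Tmem202, shares 255 annotated exon bases with it and was at or near 0 FPKM in every library. After the correction for transcript GC content described further on, its log2 difference was 0.77 (95% interval 0.36 to 1.18).

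Gm2a, the GM2 activator that presents the lipid to the enzyme, had 25.2 and 23.7 FPKM in the Csk(f/f) libraries and 13.8, 18.7 and 16.4 FPKM in the Csk(+/+) libraries (log2 difference 0.56 ± 0.17, SE; limma adjusted p = 0.167). The Hexa to Gm2a ratio within a library was 2.24 and 2.63 in Csk(f/f), above the 1.70, 1.81 and 1.90 in Csk(+/+).

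Hexa lies on chromosome 9, as does Csk. In the GRCm38 annotation 30 genes of the table lie between them, of which 12 were tested. Of these 0 passed (limma adjusted p) and 9 had a positive log2 difference, with a median of 0.17. Over all tested genes 0.0781% passed, 48.7% had a positive log2 difference and the median was -0.01. These values are without the GC correction, and a part of chromosome position in them was not tested. Glb1 is on the same chromosome but with 524 genes of the table between it and Hexa. The other members lie on chromosomes 5, 8, 10, 11, 15 and X.

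Glb1, the lysosomal beta-galactosidase that acts on ganglioside GM1 and keratan sulfate, had 21.8 and 23.4 FPKM in the Csk(f/f) libraries. In the Csk(+/+) libraries it had 12.8, 19.1 and 14.1 FPKM. The groups did not overlap, although Csk(+/+) replicate 2 came near the Csk(f/f) values. The log2 difference was 0.55 ± 0.19 (SE; 95% interval 0.10 to 0.99). A short gene, Tmppe, shares 165 of the 3008 exon bases annotated for Glb1 and was itself at 5.42 and 7.22 FPKM in Csk(f/f) and 5.11, 5.58 and 3.67 FPKM in Csk(+/+), and reads from the shared bases cannot be told apart.

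Beta-galactosidase is held in a complex with cathepsin A (Ctsa), which protects it, and the sialidase Neu1. Ctsa had 78.7 and 82.4 FPKM in the Csk(f/f) libraries and 49.1, 54.9 and 61.9 FPKM in the Csk(+/+) libraries (log2 difference 0.54 ± 0.14, SE; limma adjusted p = 0.155). After the GC correction the log2 differences were 0.33 for Ctsa (95% interval -0.05 to 0.71) and 0.47 for Glb1. The Glb1 to Ctsa ratio overlapped between the groups, at 0.277 and 0.285 in Csk(f/f) and 0.262, 0.347 and 0.229 in Csk(+/+). Neu1 had 14.7 and 14.9 FPKM in Csk(f/f) and 11.1, 14.6 and 9.65 FPKM in Csk(+/+) (log2 difference 0.33 ± 0.20, SE, and 0.16 after the GC correction). The Glb1 to Neu1 ratio was 1.48 and 1.57 in Csk(f/f), above the 1.16, 1.31 and 1.47 in Csk(+/+), by a small margin over replicate 3.

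Gusb, the beta-glucuronidase that trims heparan, dermatan and chondroitin sulfate, was next after Hexa in Csk(f/f) and next after Psap in Csk(+/+). Its FPKM was 44.3 and 50.1 in the Csk(f/f) libraries, against 39.8, 38.7 and 33.2 in the Csk(+/+) libraries. The groups did not overlap, but the gap was smaller than for Hexa. Its log2 difference was 0.34 ± 0.14 (SE; 95% interval 0.01 to 0.67), and after the GC correction its interval included 0 (0.21, -0.07 to 0.48). The iduronidase Idua, which acts beside it on the same chains, had a log2 difference of 0.35 ± 0.31 (SE; 0.14 after the GC correction) with overlapping groups.

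Arsa, the arylsulfatase that desulfates sulfatide with the help of saposin B, was expressed at a low level. It had 4.16 and 4.95 FPKM in the Csk(f/f) libraries, against 2.98, 3.68 and 2.83 FPKM in the Csk(+/+) libraries. The values were apart by a small margin and rest on about 117 to 337 fragments a library. Arsa shares 690 annotated exon bases with an opposite-strand gene, C230037L18Rik, and counting is not stated to use strand. On the log2 scale the difference was 0.42 ± 0.20 (SE), and its 95% interval of -0.04 to 0.88 included 0. Sumf1, the enzyme that activates sulfatases, had 11.0 and 14.9 FPKM in Csk(f/f) and 14.6, 11.0 and 11.3 FPKM in Csk(+/+), with overlapping groups and a log2 difference of 0.06 ± 0.20 (SE).

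Gla, the alpha-galactosidase that clears globotriaosylceramide, had the lowest level of the 8. It had 2.28 and 1.97 FPKM in the Csk(f/f) libraries, against 2.15, 1.50 and 1.36 FPKM in the Csk(+/+) libraries. The groups overlapped, with Csk(+/+) replicate 1 between the Csk(f/f) values. At about 50.8 to 168 fragments a library, the log2 difference of 0.24 ± 0.21 (SE) had a 95% interval of -0.25 to 0.73.

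Asah1 encodes acid ceramidase, which splits ceramide into sphingosine and a fatty acid and closes the lysosomal chain of sphingolipid breakdown. It had 10.3 and 12.7 FPKM in the Csk(f/f) libraries, against 16.5, 14.9 and 12.6 FPKM in the Csk(+/+) libraries. Its mean was lower in Csk(f/f), but the groups overlapped narrowly at Csk(+/+) replicate 3. The log2 difference was -0.32 ± 0.18 (SE; 95% interval -0.75 to 0.10), and after the GC correction it was 0.01 (-0.38 to 0.40). Smpd1, the acid sphingomyelinase that makes ceramide one step earlier, had 17.5 and 18.9 FPKM in Csk(f/f) and 11.7, 14.6 and 14.4 FPKM in Csk(+/+) (log2 difference 0.40 ± 0.17, SE; limma adjusted p = 0.221). The Asah1 to Smpd1 ratio within a library was 0.591 and 0.671 in Csk(f/f), below the 1.41, 1.02 and 0.881 in Csk(+/+). The transcripts differ in GC content (43.5% and 55.7%), and the log2 differences after the GC correction were 0.01 and 0.15.

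**Figure D2:**
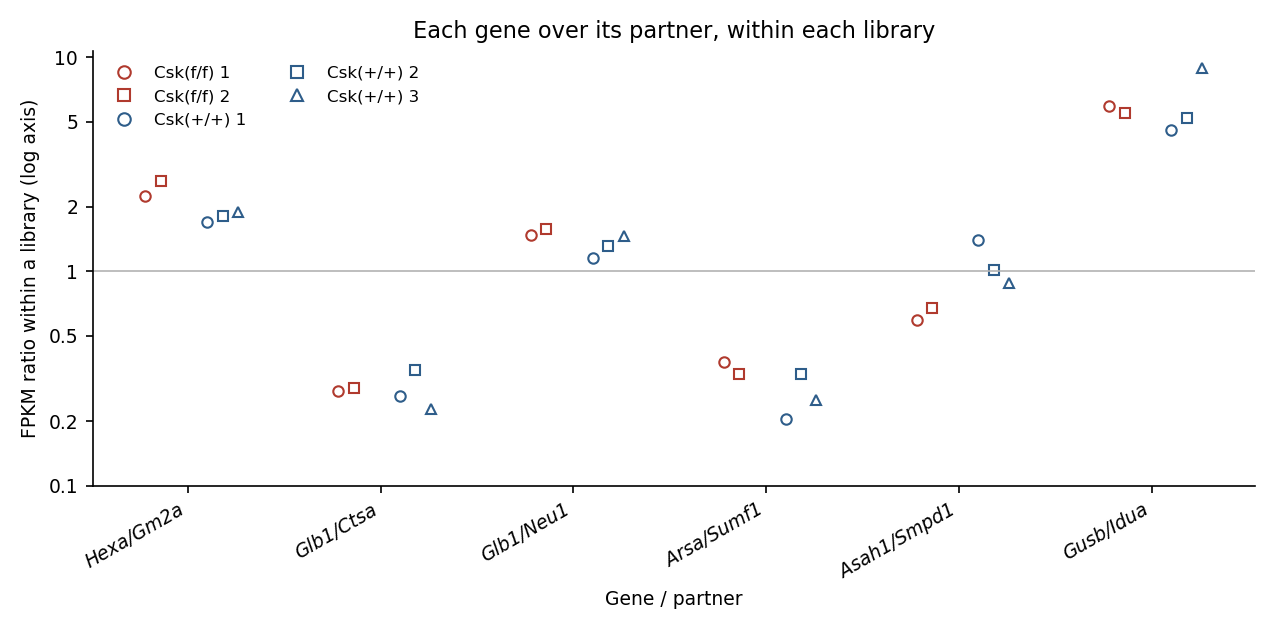
FPKM of each gene divided by that of a partner enzyme or cofactor in the same library (log axis), with the 2 Csk(f/f) libraries in red at the left and the 3 Csk(+/+) libraries in blue at the right of each ratio. The Hexa to Gm2a ratio is higher, and the Asah1 to Smpd1 ratio lower, in both Csk(f/f) libraries than in every Csk(+/+) library.

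The order of levels among the 8 genes differed between the groups. In Csk(f/f) it ran Psap (239 FPKM), Hexa (59.3), Gusb (47.2), Gaa (23.7), Glb1 (22.6), Asah1 (11.5), Arsa (4.55) and Gla (2.12), and Gaa and Glb1 were the only neighbours whose libraries overlapped. In Csk(+/+) it ran Psap (132 FPKM), Gusb (37.2), Hexa (29.5), Glb1 (15.3), Asah1 (14.7), Gaa (10.2), Arsa (3.16) and Gla (1.67). There the neighbours Gusb and Hexa, and Glb1 and Asah1, overlapped. Hexa thus stood above Gusb, and Gaa above Asah1, in the Csk(f/f) libraries, and the other way round by their means in Csk(+/+).

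The 8 genes lay at different distances from their mean profile over the libraries. Likeness was measured as the root mean square difference, over the 5 libraries, between the log2(FPKM + 1) deviations of a gene from its own mean and the mean deviations of the 8 genes. It was 0.067 for Arsa, the closest, and 0.43 for Asah1, the farthest. Of 7392 other genes with a mean of at least 5 FPKM, Zfp282, Rbm19, Vac14, Glt25d1 and Polrmt came closest, at 0.021 to 0.029. They were picked as the closest of 7392, so a place nearer than any of the 8 was all but fixed by the search. The measure also counts a larger shift in the same direction as distance, as for Gaa (0.31). The rule for this search used the same libraries, so it is a description.

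Differences over the whole table went with the GC content of the transcript. In 10 bins of equal size by GC content, the median log2 difference of the tested genes was -0.47 in the lowest bin and 0.32 in the highest. Among the 8 genes Asah1 had the lowest GC content (43.5%) and the only negative difference, and Gaa had the highest GC content (59.5%) and the largest. Subtracting each library's trend against GC content left log2 differences of 0.82 ± 0.13 (SE) for Gaa, 0.77 ± 0.17 for Hexa, 0.64 ± 0.14 for Psap and 0.47 ± 0.17 for Glb1. It raised that of Gla to 0.43 ± 0.16 and lowered that of Arsa to 0.15 ± 0.15. After the correction all 8 were positive (50.2% of the genes with a GC value), with Asah1 at only 0.01 ± 0.165 (SE). The median of the 8 was 0.45 against 0.001 over those genes, and 0 passed (limma adjusted p) beside 0.079% of them. By unadjusted p 5 of the 8 were then higher and 0 lower, where 4.89% and 5.06% of those genes were.

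**Figure D3:**
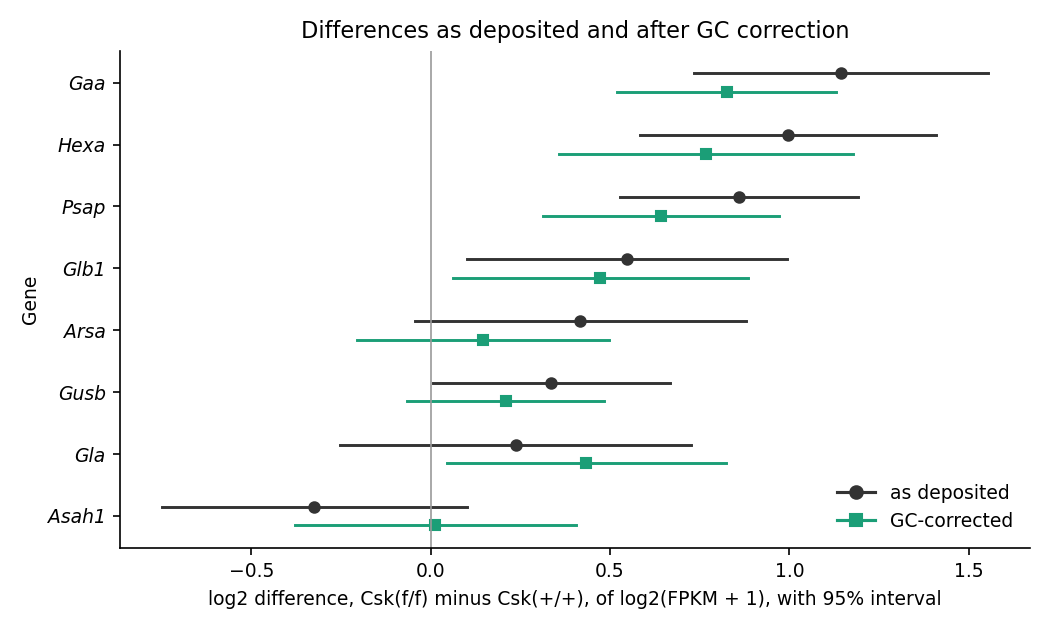
Log2 difference (Csk(f/f) minus Csk(+/+), of log2(FPKM + 1)) with its 95% interval for each of the 8 genes, as deposited (black circles) and after the GC correction (green squares). Gaa, Hexa, Psap and Glb1 have both intervals above 0, and Asah1 moves from -0.32 to 0.01.

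**Figure D4:**
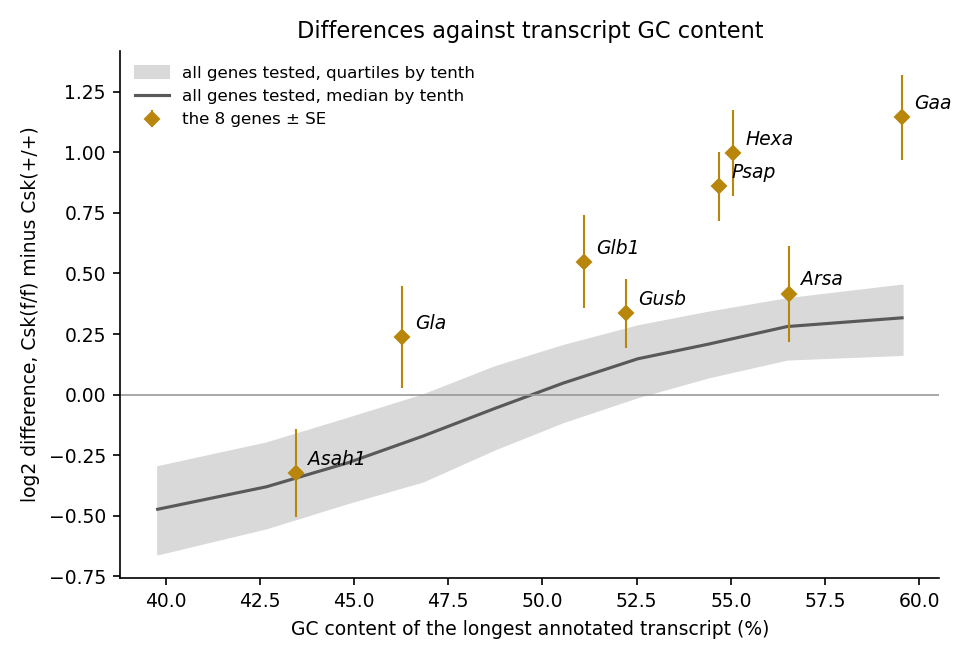
Log2 difference against the GC content of the longest annotated transcript, with the 8 genes as diamonds ± SE and, for all tested genes, the median (line) and quartiles (band) in 10 bins of GC content. Gaa, Hexa, Psap, Glb1 and Gla lie clear above the band, Gusb and Arsa just above it, and Asah1 inside it.

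Leaving out Csk(+/+) replicate 3 changed the calls more than the values. Without it Gaa (log2 difference 1.04, limma adjusted p = 0.0219), Psap (0.82, adjusted p = 0.0315) and Hexa (1.04, adjusted p = 0.0315) passed as higher, 3 of the 8, where 4.05% of all tested genes passed and 1.26% passed as higher. With the GC correction as well none of the 8 passed (limma adjusted p), beside 0.398% of genes, and Gaa came closest (log2 difference 0.77, adjusted p = 0.0554). Without either Csk(f/f) library none passed (limma adjusted p).

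Other lysosomal genes of glycan and lipid breakdown were taken from lists of 24 and 15 genes, 38 in all since 1 gene is in both. The lists also hold Renbp and Engase, which are cytosolic, and no count was made without them. Of the 38, 33 were tested, 27 had a positive and 6 a negative log2 difference, and 0 passed in either direction by limma over all genes. By unadjusted p 12 were higher and 0 lower, where 8.07% and 13.6% of all tested genes were. After the GC correction 8 were higher and 0 lower, where 4.89% and 5.06% were. Their median log2 difference was 0.35 (0.26 after the GC correction), against -0.01 over all tested genes. In 21 of the 33 every Csk(f/f) library was above every Csk(+/+) library and in 0 below, where 20.7% and 24.5% of all tested genes were.

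Among the glycan genes Man2b2, an alpha-mannosidase, had 28.8 and 30.6 FPKM in Csk(f/f) and 18.5, 22.3 and 17.1 FPKM in Csk(+/+) (log2 difference 0.61 ± 0.16, SE, and 0.30 after the GC correction). Renbp had a log2 difference of 1.16 ± 0.20 (SE), but it and Engase are cytosolic enzymes of amino sugar and glycan turnover and not lysosomal ones. Without Csk(+/+) replicate 3, 3 of the 33 passed as higher by limma, among them Renbp (adjusted p = 0.0329) and Ctsa (adjusted p = 0.0405). Of all tested genes 4.05% then passed and 1.26% passed as higher. At the other end of the lists Smpdl3a, Naaa, Glb1l, Lipa, Arsb and Aga had negative log2 differences, from -0.31 to -0.01, and their groups overlapped.

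**Figure D5:**
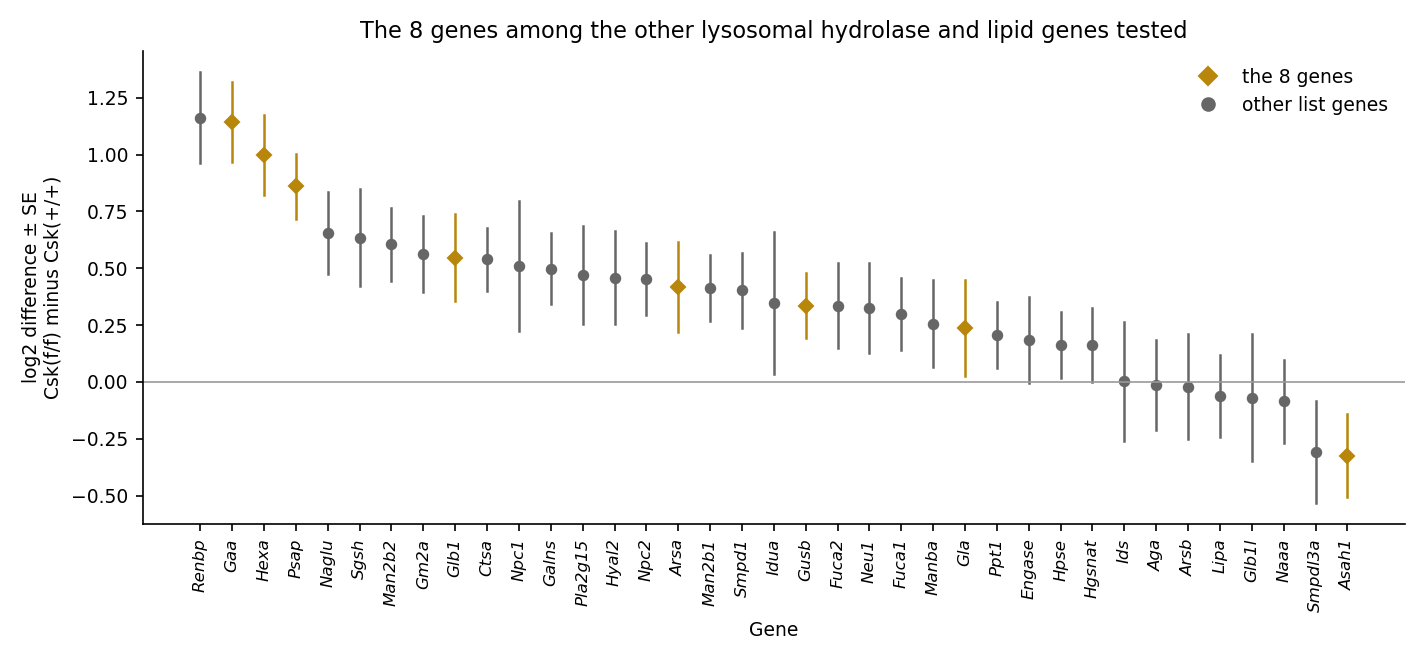
Log2 difference ± SE (Csk(f/f) minus Csk(+/+)), in order of size, of the 8 genes (gold diamonds) and of 29 other tested genes (grey circles). The 29 come from the lists of lysosomal glycan and lipid genes, which also hold the cytosolic Renbp and Engase. Gaa, Hexa and Psap stand beside Renbp at the high end, and Asah1 is the lowest at -0.32.

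The machinery that delivers the enzymes showed smaller values. Of 14 genes of sorting and maturation 13 were tested, 0 passed (limma adjusted p), and the median log2 difference was 0.13. By unadjusted p 2 were higher and 0 lower, where 8.07% and 13.6% of all tested genes were. The adaptors Gga1 (log2 difference 0.42 ± 0.13, SE) and Gga2 (0.38 ± 0.13), which pack mannose 6-phosphate receptors into vesicles, had the smallest p-values, followed by Gga3 (0.43 ± 0.28). After the GC correction these were 0.08, 0.32 and 0.27, and 0 of the 13 were higher by unadjusted p. Gga2 had 97.3 and 101 FPKM in the Csk(f/f) libraries and 69.5, 85.0 and 73.4 FPKM in the Csk(+/+) libraries.

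Of 23 genes that build or rework sphingolipids outside the lysosome 17 were tested, 0 passed (limma adjusted p), and the median log2 difference was 0.06. By unadjusted p 5 were higher and 1 lower, where 8.07% and 13.6% of all tested genes were. After the GC correction 4 were higher and 0 lower, where 4.89% and 5.06% of genes were, and the median was 0.18. B4galnt1, the synthase of GM2, the lipid that Hexa breaks down, had 157 and 164 FPKM in the Csk(f/f) libraries and 111, 132 and 111 FPKM in the Csk(+/+) libraries (log2 difference 0.45 ± 0.13, SE, and 0.12 after the GC correction). Enzymes that remove sphingosine 1-phosphate differed in direction. Sgpl1, the lyase, had 29.3 and 33.8 FPKM in Csk(f/f), against 22.9, 24.8 and 16.1 FPKM in Csk(+/+). Sgpp1, the phosphatase, had 13.9 and 13.0 FPKM in Csk(f/f), against 20.9, 19.6 and 16.4 FPKM in Csk(+/+). Their log2 differences were 0.57 for Sgpl1 and -0.46 for Sgpp1, and 0.62 and -0.25 after the GC correction, which ended the unadjusted call of Sgpp1.

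Of the MiT/TFE factors, Tfeb and Tfe3 were tested and neither passed. Tfeb had 84.2 and 85.6 FPKM in the Csk(f/f) libraries and 59.0, 69.8 and 68.1 FPKM in the Csk(+/+) libraries, and its log2 difference was 0.37 ± 0.13 (SE) as deposited and 0.03 after the GC correction. Tfe3 (log2 difference 0.29, and 0.17 after the GC correction) had overlapping groups, at 19.1 and 21.6 FPKM in Csk(f/f) and 16.9, 19.3 and 13.6 FPKM in Csk(+/+).

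Macrophages are rich in these enzymes and were looked for by 20 marker genes. Their summed level was 28.3 to 29.3 FPKM in the Csk(f/f) libraries and 16.4 to 26.3 FPKM in the Csk(+/+) libraries. Of the 20, 16 were under 1 FPKM in every library, among them Csf1r, Emr1, C1qa, C1qb, Cd14 and Fcgr1, and Mertk was listed at 0 throughout. The summed light zone list (6 genes) was 1408 to 1436 FPKM in Csk(f/f) and 1224 to 1231 FPKM in Csk(+/+), and the summed dark zone list (6 genes) 203 to 207 FPKM in Csk(f/f) and 220 to 235 FPKM in Csk(+/+). Within the light zone list Cd83, Cd40 and Fcer2a were higher, and Cd86 and Bcl2a1b lower, in every Csk(f/f) library than in every Csk(+/+) library, and Nfkbia overlapped. Cd68 and Lyz2 made up most of the macrophage sum, and Lyz2 had 12.1 and 10.2 FPKM in Csk(f/f) and 6.56, 8.01 and 1.91 FPKM in Csk(+/+). The summed plasma cell list (9 genes) was 231.2 to 257.5 FPKM in Csk(f/f) and 258.2 to 291.2 FPKM in Csk(+/+), with Sdc1, Prdm1 and Tnfrsf17 under 1 FPKM in every library. Within it Igj was lower, and Xbp1 and Irf4 higher, in every Csk(f/f) library than in every Csk(+/+) library. Slamf7, Ly6c1 and Ly6c2 overlapped. Igj had 91.2 and 79.5 FPKM in Csk(f/f) and 128, 119 and 157 FPKM in Csk(+/+). The follicular dendritic and stromal list (10 genes) summed to 439 to 492 FPKM in Csk(f/f) and 368 to 417 FPKM in Csk(+/+). Fcer2a, which B cells express and which is also in the light zone list, made up most of that sum, at 423 and 477 FPKM in Csk(f/f) and 347, 391 and 359 FPKM in Csk(+/+), and 7 of the 10 genes were under 1 FPKM in every library. The macrophage, light zone, dark zone, plasma cell and stromal sums each separated the groups without overlap, and their part in the differences above was not tested. The germinal centre B cell, T cell, natural killer, dendritic, neutrophil and erythroid and platelet sums overlapped between the groups, and the last ranged from 197 to 458 FPKM in Csk(f/f) and 186 to 931 FPKM in Csk(+/+).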

How the data were processed

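RNA of sorted cells was sequenced in 2 libraries labelled Csk(f/f) and 3 labelled Csk(+/+). Per the labels' protocols RNA was taken in TRIzol, and a NEBNext Ultra RNA kit was used for the libraries. The deposited values are FPKM per gene. Per the submitters' processing notes the tools were TopHat2 2.0.8 and Cufflinks 2.1.1, and the genome build was mm9. The annotation, the strand setting and any scaling between libraries are not given in the sources used here. That the unit is FPKM follows from these tools and the form of the table. The table held 23234 genes, and 1 line, a second header, was left out.

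Testing covered the 10242 genes that reached 1 FPKM in 2 or more libraries. It used log2(FPKM + 1) and limma 3.58.1 (R 4.3.3; trended empirical Bayes, two-sided), with Benjamini-Hochberg adjustment over all of these genes and a threshold of 0.05. A log2(FPKM + 1) difference understates the change of low genes. For the GC correction, the deviation of each gene from its mean was fitted per library against GC content by lowess (span 0.3), and the trend was subtracted. GC content came from the longest GENCODE M21 transcript (GRCm38) and was known for 10130 tested genes (98.9%). The procedure was tested on simulated data. Alternatives were pseudocounts of 0.1 and 5, no filter and a filter at 5 FPKM, median-ratio and quantile scaling, the GC correction, a block on replicate number, and leaving out single libraries. The fit with GC correction and without Csk(+/+) replicate 3 was chosen after seeing the data.

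The members and lists were chosen with earlier results of these data known. Named genes are the 8 members, their listed partners, from each list the genes that passed or otherwise the 3 with the smallest p, Csk, and the 5 genes of nearest profile. Other genes named from the lists (Engase, single marker genes and the genes with negative differences) were chosen after their values were seen. Symbols not in the table were looked up by older symbols. No gene of the marker lists passed in the fit of all 5 libraries (limma adjusted p). Depth was estimated as the library size at which the lowest FPKM values fall on whole fragments, and is approximate. With 2 and 3 libraries, a p-value sets the group difference against the spread between these libraries, moderated by a trend over all tested genes. Some genes that these rules name are not reported here.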

Additional observations from a re-analysis of the deposited data

How the results depend on the processing

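The log2 differences of Gaa, Psap, Hexa, Gla, Glb1, Gusb and Arsa kept their sign in each alternative in which they were tested (15, or 14 for Gla and Arsa, which fell outside the filter at 5 FPKM). Ranges were 0.78 to 1.23 for Gaa, 0.64 to 0.96 for Psap and 0.77 to 1.10 for Hexa, with limma adjusted p-values of 0.0219 to 0.779, 0.0315 to 0.779 and 0.0177 to 0.779. Asah1 ran from -0.463 to 0.013, and changed sign with the GC correction (0.013). It was -0.053 with the block and GC correction, and -0.05 with GC correction and without Csk(+/+) replicate 3.

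Where a Csk(f/f) library was left out, the lone other one was assumed to vary like the Csk(+/+) libraries. The count of the 8 genes that passed by limma went to 3 without Csk(+/+) replicate 3, with the replicate block (3) and with the replicate block and GC correction (3), in each case Gaa, Psap and Hexa, and was 0 in the other alternatives. With 1 library left out it was 0 to 3, their median log2 difference 0.41 to 0.60, the count of other hydrolases that passed 0 to 3, and that of all genes 5 to 411. The median was 0.70 with the filter at 5 FPKM, where 6 of the 8 were tested. Over all genes 5 passed with no filter, 492 with the replicate block (4.8%; 110 higher and 382 lower), 173 with the block and GC correction (1.71%; 98 higher and 75 lower), and 40 with GC correction and without Csk(+/+) replicate 3. Of other hydrolases 5, 2 and 1 passed in these last 3 fits. In the block fit Csk(+/+) replicate 3 has no partner, so the log2 differences rest on the other libraries. They equal those of the fit without that library, at 1.037 for Gaa, 0.822 for Psap and 1.042 for Hexa in both. These fits are therefore not separate support. Why the counts of genes that passed differ between fits was not tested.

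Differences near 0 changed sign for Sumf1 without Csk(+/+) replicate 2 (-0.006) and without Csk(f/f) replicate 2 (-0.139; -0.139 to 0.263 with single libraries left out). With the block and GC correction Idua (-0.115), Ugp2 (0.033) and Csk (-0.073) changed sign, as they did with GC correction and without Csk(+/+) replicate 3 (-0.116, 0.041 and -0.075), and Csk also with the GC correction alone (-0.141).

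Replicate numbers were not said to pair libraries. Deviations of same-numbered libraries correlated at -0.13 and 0.11, and the block leaves Csk(+/+) replicate 3 without a partner. Gla and Arsa rest on the fewest fragments of the 8, and counting error limits their values most.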
